A study of Homo sapiens with 9 samples.

Results

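HOX cluster genes encode homeodomain transcription factors, and their RNA was followed here in vesicles released by H9 cells, an established human embryonic stem cell line grown without serum or feeder cells. The members are the 47 probe sets, of 54675 on the Affymetrix HG-U133 Plus 2.0 array, that the array annotation pairs with a gene of the HOXA, HOXB, HOXC or HOXD cluster. Antisense RNAs were left out. The 47 probe sets represent 29 HOX genes, namely HOXA2, all 10 HOXB genes, all 9 HOXC genes and all 9 HOXD genes. Other HOXA genes were not analysed here. HOXD3 is represented only through 3 probe sets that it shares with HOXD4.

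The vesicle preparations were of 3 kinds, with 3 arrays each. Microvesicles (MVs) are the pellet of a 1 hour spin at 16500g, taken after debris had been cleared at 300g (200g in the sample descriptions) and apoptotic bodies at 2800g. Exosomes (EXOs) are the pellet of the remaining medium after 2 hours at 120000g. Non-fractionated vesicles (hESEVs) were pelleted at 120000g for 2 hours after clearing at 300g only, although the study's methods give a different clearing and a faster, longer spin for them. All preparations came from the same untreated line in one culture medium, and the pellets are fractions by sedimentation, so that each can hold other vesicles or particles that sediment alike.

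As background, HOX genes lie in clusters on different chromosomes and pattern the body axis. Genes of the low-numbered paralog groups are switched on first and act in the hindbrain and anterior trunk, and the high-numbered ones act in the posterior trunk, limbs and genital tract. In pluripotent cells the clusters are held at low activity by Polycomb complexes, which bind promoters rich in CpG dinucleotides, while Trithorax proteins, retinoic acid receptors and CDX factors act in their induction. HOX proteins bind DNA together with TALE homeodomain cofactors of the PBX, MEIS and PKNOX families.

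The RefSeq table of promoters (assembly GRCh38.p14) holds an entry for 12 of the HOX genes, HOXD1 and HOXD10 among them. Both genes have a probe set whose difference between MVs and EXOs passed the adjusted threshold below. The 250 bases upstream of their starts are shown because CpG-rich promoters are the usual Polycomb targets. Capitals mark each CG dinucleotide, and both windows are read on the plus strand.
HOXD1, chr2:176188418-176188667: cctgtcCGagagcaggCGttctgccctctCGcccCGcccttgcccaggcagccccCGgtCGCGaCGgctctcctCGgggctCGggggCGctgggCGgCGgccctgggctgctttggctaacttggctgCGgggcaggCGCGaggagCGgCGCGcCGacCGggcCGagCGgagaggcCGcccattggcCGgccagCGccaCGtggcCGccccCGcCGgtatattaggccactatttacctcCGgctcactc
HOXD10, chr2:176116528-176116777: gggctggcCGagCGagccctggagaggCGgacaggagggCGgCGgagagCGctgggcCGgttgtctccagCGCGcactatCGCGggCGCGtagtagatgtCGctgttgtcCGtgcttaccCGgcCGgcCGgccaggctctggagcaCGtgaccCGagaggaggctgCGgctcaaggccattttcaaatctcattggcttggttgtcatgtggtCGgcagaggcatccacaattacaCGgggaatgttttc
The HOXD1 window holds 31 CG dinucleotides and is 74.8% G or C, and 10.9% of the 35114 windows in the table hold as many. It lies inside the annotated span of HAGLR, a long noncoding RNA of the HOXD cluster. The HOXD10 window holds 23 CG dinucleotides, a number that 25.8% of all windows reach. The median window holds 11, and the 12 HOX windows range from 4 for HOXD4 to 31 for HOXD1. The letters AGGTCA, a motif of retinoic acid receptors, were searched on both strands and occur in 0 of the 12 HOX windows and in 12.1% of all windows.

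The values are MAS5 signals, one per probe set and array, on a linear scale. The arrays had been scaled to a common target of 500. No arrays were identical. The correlation of log2 signals between arrays of a group was 0.765 to 0.827 over all probe sets and 0.743 to 0.875 over the HOX probe sets. The median signal of all probe sets was 358 to 365 in MVs, below the range of 415 to 430 over the EXOs and hESEVs arrays. LIN28A, an embryonic stem cell marker, had 16718 to 19267 in MVs, against 2381 to 2784 in EXOs and 4063 to 4501 in hESEVs, so it was measured in all preparations and was highest in MVs. The same mass of total RNA was taken for each array and amplified, so a difference in signal is one of share of the amplified RNA. Fewer vesicles with a transcript cannot be told apart from less of it per vesicle. In the study's electrophoresis MVs held much longer RNA than EXOs, which were rich only in small RNA. The part of RNA length in the differences between MVs and EXOs was not tested.

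HOX signals were low in all preparations. The median over the HOX probe sets was 238, 210 and 208 on the MVs arrays, 331, 349 and 230 on the EXOs arrays and 283, 408 and 313 on the hESEVs arrays. EXOs replicate 3 lay between the MVs arrays, so that MVs and EXOs overlap in this summary. The median of the group means was 244 for HOX and 357 for all probe sets in MVs, 311 and 421 in EXOs, and 335 and 416 in hESEVs.

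To place these levels, the tissue-restricted list was used, 129 probe sets of genes typical of differentiated organs, whose 90th percentile was 746 in MVs, 1097 in EXOs and 992 in hESEVs. By the choice of that percentile, 13 of the 129 lie above it in each preparation. Of the HOX probe sets 4 (8.51%, against 19.2% of all probe sets) had a group mean above it in MVs. In EXOs there were 5 (10.6%, against 9.29%) and in hESEVs 5 (10.6%, against 11.7%). They were HOXC6, HOXB9, HOXB5 and HOXC4, each with 1 probe set above the level in every preparation, and HOXD1, which exceeded it in EXOs and hESEVs. At the other end HOXD12, a posterior limb gene, was under a signal of 32 on all 9 arrays, at 6.30 to 6.57 in MVs, against 8.07 to 15.9 in EXOs and 12.1 to 16.2 in hESEVs. One probe set each of HOXB13, HOXD10 and HOXD13 was also under 32 on all MVs arrays. No detection call was used, so a signal below or above the tissue-restricted level is not shown to be HOX transcript.

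The comparison the study was made for is that of MVs with EXOs. Signals under 32 were raised to 32, and differences are log2 fold changes, MVs minus EXOs, with the standard error and Benjamini-Hochberg adjusted p of limma over all 54613 probe sets that are not controls. A probe set was called at an adjusted p under 0.05 and at least 2-fold. Of the 47 HOX probe sets 1 was called, that of HOXD1, lower in MVs. This is 2.13% of them, and 1.97% of all probe sets were called lower in MVs. In the other direction 0 were called, against 7.23% of all probe sets. At any fold, 5 passed the adjusted threshold, all lower in MVs (10.6%, against 4.15% of all probe sets), and 0 passed it as higher, against 7.97%. The 5 became 1, HOXD1, with each array centred on its median and likewise with no trend in the variance prior. At an unadjusted p under 0.05 there were 17 (36.2%, against 28.3%), all of them lower in MVs.

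HOXD1 lies at the 3′ end of its cluster and belongs to the first paralog group, whose members act early in the hindbrain. Its probe set 205975_s_at had signals of 545, 669 and 596 in MVs, 1446, 1143 and 1240.3 in EXOs, and 1496, 1155 and 958 in hESEVs. Every MVs array lay below every array of the other preparations, which overlap each other. The log2 fold change was -1.08 (SE 0.175, adjusted p = 0.00636, limma), or 2.11-fold higher in EXOs. It stood close to the fold threshold and was -0.99 without EXOs replicate 1 and -0.85 with each array centred on its median, under 2-fold in both. Its second probe set, 205974_at, gave 233, 159 and 440.0 in MVs, 402, 336 and 36.8 in EXOs and 43.8, 423 and 252 in hESEVs. Those values overlap widely, with a log2 fold change of 0.57 (SE 0.987, adjusted p = 0.742), and with both probe sets averaged HOXD1 was at -0.25 (adjusted p = 0.766).

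The other 4 passed the adjusted threshold at under 2-fold. HOXB9, which acts in the thoracic skeleton and mammary gland of the mouse, had 960.5, 935 and 1007 in MVs, 1512, 1487 and 1763 in EXOs and 1437, 1712 and 1136 in hESEVs (226461_at). Its MVs arrays were close together and below all others (log2 fold change -0.71, SE 0.133, adjusted p = 0.0123). Its second probe set, 216417_x_at, had 242, 378 and 254 in MVs and 404, 349 and 146 in EXOs, which overlap (0.06, SE 0.548, adjusted p = 0.960), and with both averaged HOXB9 was at -0.33 (adjusted p = 0.379).

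HOXB5, known for roles in the gut wall and lung, had 776, 987 and 799 in MVs, 1519, 1326 and 1549 in EXOs and 945, 1189.9 and 1537 in hESEVs (205601_s_at). MVs and EXOs did not overlap (-0.78, SE 0.157, adjusted p = 0.0168), and the hESEVs arrays ran across both ranges.

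HOXC6, a gene of the thoracic region, gave the highest HOX signals on the array, with 1575, 1472 and 1448 in MVs, 2265, 2156 and 2098 in EXOs and 1323, 1479 and 1651 in hESEVs (206858_s_at). Here EXOs stood above both other preparations, and the MVs minus EXOs difference was -0.54 (SE 0.105, adjusted p = 0.015). It was -1.28 with quantile normalization, which passes 2-fold, and -0.30 with each array centred on its median (adjusted p = 0.138), and with no trend the adjusted p was 0.163. HOXD10, which acts in the hindlimb and lumbar spinal cord of the mouse, had 515, 545 and 399 in MVs, 794, 900.2 and 907 in EXOs and 720.4, 619.6 and 613 in hESEVs (229400_at). The 3 preparations did not overlap, with MVs lowest, hESEVs between and EXOs highest, and MVs differed from EXOs by -0.84 (SE 0.216, adjusted p = 0.0438).

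**Figure D1:**
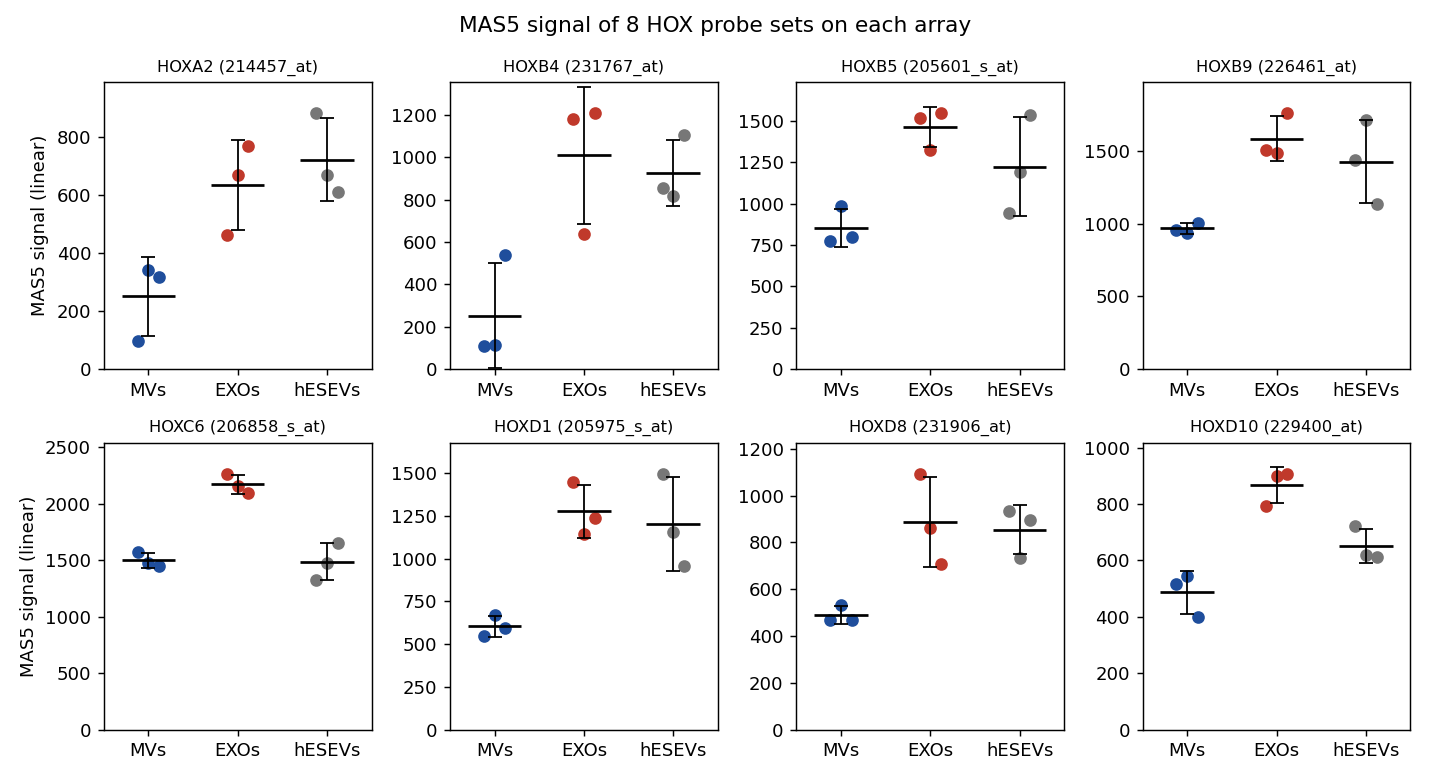
MAS5 signal (linear axis from 0) of 8 HOX probe sets on each array of MVs, EXOs and hESEVs, with points for arrays, a long bar for the mean and an error bar of 1 SD (n = 3). The 8 are a selection in which the 3 MVs points lie below the 3 EXOs points in every panel. Of all 47 HOX probe sets this held for 22 (46.8%, against 21.5% of all probe sets). For HOXC6 the hESEVs points (1323 to 1651) lie beside those of MVs (1448 to 1575).

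HOXB4, known for expanding blood stem cells when overexpressed, had 107, 112 and 538 in MVs, 1181, 636 and 1209 in EXOs and 856, 818 and 1105 in hESEVs (231767_at). The groups did not overlap, but MVs replicate 3 lay nearer to the lowest EXOs array than to the other MVs arrays. The log2 fold change was -2.38 (SE 0.657) and missed the threshold, with an adjusted p of 0.0561. Without MVs replicate 3 it was -3.15 with an adjusted p of 0.00885. HOXD4 was similar in size and much dimmer, with 61.2, 61.7 and 42.2 in MVs and 529.8, 410.2 and 117 in EXOs (205522_at, -2.44, SE 0.706, adjusted p = 0.0655). Its other probe set of its own gave 0.13 (SE 0.896).

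HOXA2, which specifies the second branchial arch, had 94.7, 342 and 316 in MVs, 463, 669.9 and 770.2 in EXOs and 882, 669 and 612 in hESEVs (214457_at). The MVs arrays were below all others, and the difference from EXOs of -1.52 (SE 0.562) was not significant at an adjusted p of 0.129. Without MVs replicate 1 it was -0.92 (adjusted p = 0.171). HOXD8 had 469, 532 and 469 in MVs, 1093, 861 and 708 in EXOs and 934, 734 and 895 in hESEVs (231906_at, -0.84, SE 0.230, adjusted p = 0.0555). HOXC10, a lumbar level gene, averaged 664 ± 126 in MVs and 1002 ± 110.4 in EXOs (SD, n = 3 each) and did not pass either (adjusted p = 0.106).

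Across the family, 36 of 47 log2 fold changes were below 0, 10 were above 0 and HOXD12 was at the floor. The share below 0 was 76.6%, against 63.8% of all probe sets and 100 of 129 in the tissue-restricted list. The median was -0.71 for HOX, -0.29 for all probe sets and -0.47 for the tissue-restricted list. All MVs arrays lay below all EXOs arrays for 22 HOX probe sets (46.8%, against 21.5% of all probe sets), and above them for 0 (against 13.2%). With each array centred on its median, the median of all probe sets moved to -0.07 and that of HOX to -0.50. The same 36 to 10 split was found for HOX, where 53.6% of all probe sets were below 0. In that setting 18 HOX probe sets had all MVs arrays below all EXOs arrays, against 6731 of all 54613 probe sets. The reverse held for 0 HOX probe sets and for 9065 of all. That setting called 4619 of all probe sets higher in MVs and 324 lower, where 3949 and 1078 were called without it, and it called 0 HOX probe sets.

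HOXC4, a cervical level gene, had 937, 578 and 1023 in MVs and 1501, 1456 and 915 in EXOs, where EXOs replicate 3 fell within the MVs range (206194_at, -0.62, SE 0.282, adjusted p = 0.200).

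**Figure D2:**
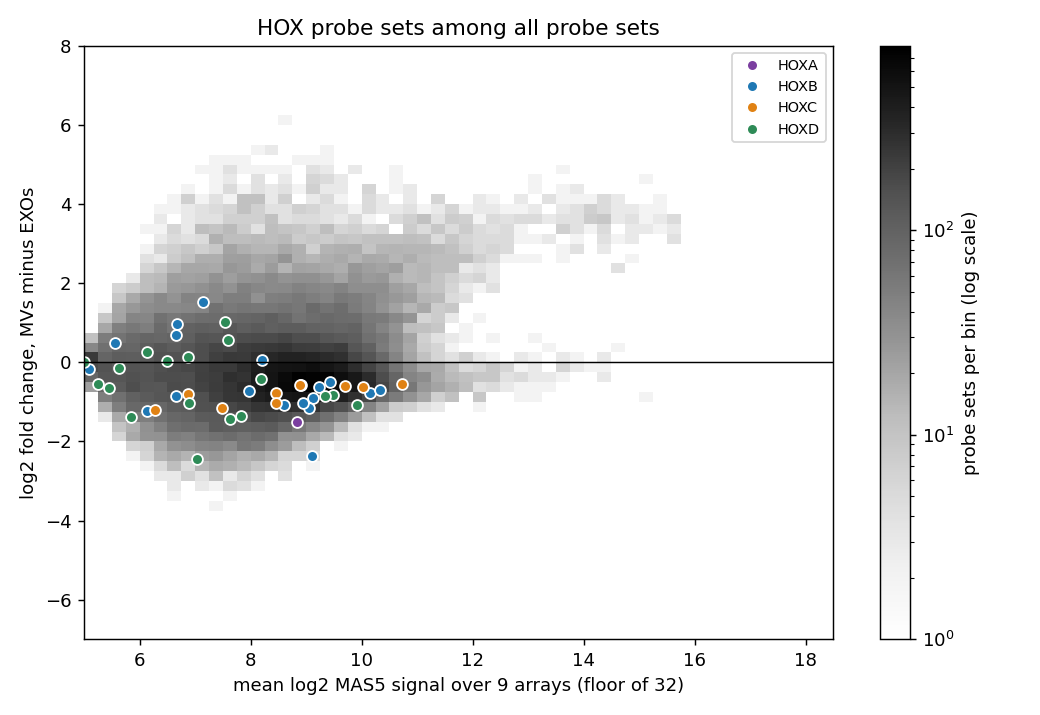
Log2 fold change of MVs minus EXOs (vertical axis) against the mean log2 MAS5 signal over 9 arrays (horizontal axis), with HOX probe sets as points coloured by cluster over the density of all 54613 probe sets in grey (log scale). Of the 47 HOX points 36 lie below 0, 10 above and HOXD12 at 0, and the lowest is HOXD4 at -2.44.

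Several other members showed the same order without passing the test. HOXB6 had 366, 484 and 259 in MVs and 999, 644 and 784 in EXOs (205365_at, -1.15, SE 0.319, adjusted p = 0.0565), and hESEVs stood at 426, 641 and 510.0. HOXD9 was tight in MVs at 112, 101 and 111 and spread in EXOs at 302, 187 and 442 (205604_at, -1.44, SE 0.571, adjusted p = 0.149). HOXC9, which patterns thoracic motor neurons in the mouse, had 337, 162 and 227 in MVs and 536, 409 and 479 in EXOs (231936_at, -1.03, SE 0.426, adjusted p = 0.164). MVs and EXOs did not overlap in any of the 3.

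Members with higher means in MVs were dim and scattered. HOXD11, which acts in the forelimb and kidney of the mouse, had 284, 349 and 99.0 in MVs and 37.4, 90.2 and 347 in EXOs, with ranges that overlap almost fully (214604_at, 1.02, SE 0.940, adjusted p = 0.513). HOXB13, a prostate and hindgut gene, had 401, 188 and 52.6 in MVs and 66.1, 64.6 and 125 in EXOs (230105_at, 0.97, SE 0.813, adjusted p = 0.474). HOXB1, a hindbrain gene, had 219.6, 69.5 and 80.7 in MVs and 104, 89.2 and 28.3 in EXOs (208224_at, 0.68, SE 0.678). Its other probe set was at -1.24 (SE 0.828). For HOXD13, whose mutations cause digit malformations, the probe set 236681_at had 71.2, 302 and 205 in MVs, 75.4, 773 and 186 in EXOs and 647, 763 and 612 in hESEVs. There MVs lay below hESEVs on every array (-2.03, SE 0.816, adjusted p = 0.175), and the EXOs arrays spread across both ranges.

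The clusters overlapped widely. HOXC had all 9 probe sets below 0, with a median of -0.77 and values of -0.54 to -1.20. HOXB had 14 of 19 below 0 and a median of -0.71, and HOXD 12 of 18 and a median of -0.60. By position along the body axis, paralog groups 1 to 4 had 11 of 15 below 0 (median -0.91), groups 5 to 8 had 11 of 13 (-0.78) and groups 9 to 13 had 14 of 19 (-0.58). The ranges of these 3 classes overlap in part, at -2.44 to 0.68, -1.15 to 1.54 and -1.44 to 1.02. No test was made between them.

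Where a gene had several probe sets of its own, they often went different ways. Of 13 such genes, 5 had all probe sets lower in MVs (HOXB3, HOXB5, HOXB6, HOXD10 and HOXD13), 0 had all higher and 8 were mixed. HOXD4, given above, and HOXB7 were the widest. HOXB7 had 304, 412 and 311 in MVs and 611, 873 and 611 in EXOs for 204779_s_at (-1.02, SE 0.292). Its probe set 204778_x_at gave 423, 209.6 and 439 in MVs and 66.1, 316 and 76.2 in EXOs, the other direction (1.54, SE 0.761). Neither passed the test (adjusted p = 0.0626 and 0.232), and 204778_x_at is of a type that can also match related sequences. HOXB8 was split in the same way, with -1.07 (SE 0.305) for 229667_s_at and 0.49 (SE 0.543) for 221278_at. The 3 probe sets shared by HOXD3 and HOXD4 gave -1.35, -1.02 and 0.27 and none passed the test.

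**Figure D3:**
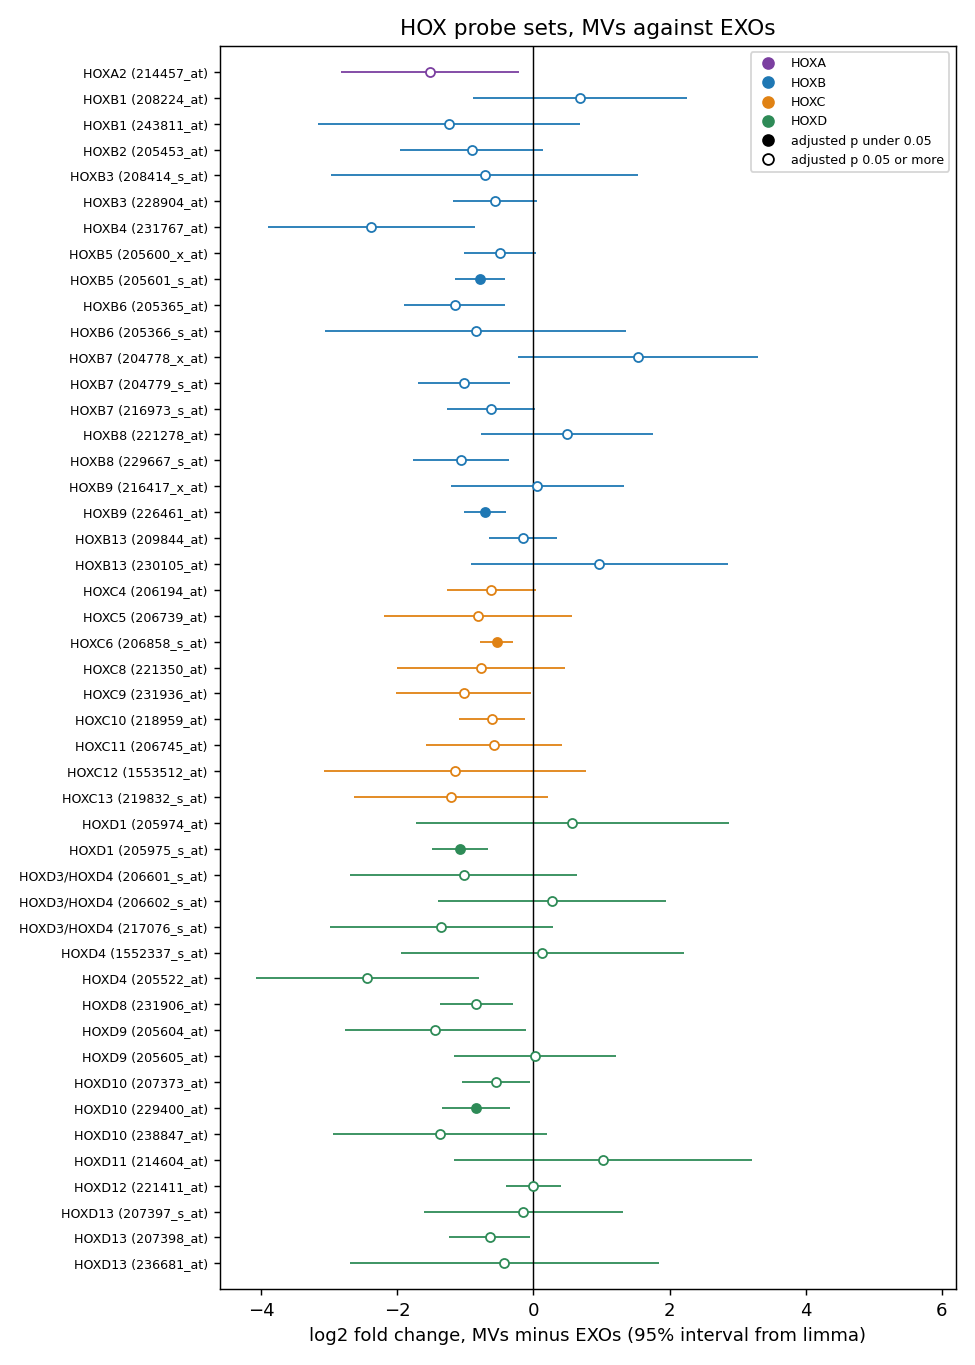
Log2 fold change of MVs minus EXOs (horizontal axis) for each of the 47 HOX probe sets, ordered by cluster and paralog group, with 95% intervals from limma and filled points where the adjusted p was under 0.05. The 5 filled points (HOXB5, HOXB9, HOXC6, HOXD1 and HOXD10) lie between -0.54 and -1.08, and the interval of every point right of 0 crosses 0.

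Non-fractionated hESEVs hold both kinds of vesicle, and their arrays enter both comparisons that follow. In MVs against hESEVs 1 HOX probe set was called, that of HOXB4, lower in MVs (log2 fold change -2.30, SE 0.559, adjusted p = 0.0311), and 1.05% of all probe sets were called in that direction. It was 0 in the other direction, against 4.25%. At any fold 2 passed the adjusted threshold, HOXB4 and HOXD1, both lower in MVs (4.26%, against 2.32% of all probe sets), and 0 as higher, against 5.18%. The HOXB4 call was lost in 5 of the 6 fits that left out 1 array, with adjusted p of 0.0796 to 0.107, and without MVs replicate 3 the adjusted p was 0.000731. HOXD1 was at -0.98 (SE 0.197, adjusted p = 0.0122), just under 2-fold, and passed 2-fold without MVs replicate 2 (-1.05) or without hESEVs replicate 3 (-1.13).

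Over the family, 40 of 47 values were below 0 (85.1%, against 61.1% of all probe sets) and 6 above (12.8%, against 38.6%), with a median of -0.44 against -0.20. MVs lay below hESEVs without overlap for 15 (31.9%, against 16.8%) and above for 1 (against 12.1%), HOXB7 204778_x_at. The difference did not pass the test for HOXA2 (-1.71, SE 0.480, adjusted p = 0.0578), HOXD8 (-0.80, SE 0.218, adjusted p = 0.053) or HOXB9 (-0.54, SE 0.165, adjusted p = 0.0781). For HOXC6 the MVs minus hESEVs difference was 0.02 with a 95% interval of -0.25 to 0.28.

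In EXOs against hESEVs limma called 0 HOX probe sets in either direction, against 0.103% of all probe sets called higher in EXOs and 1.95% lower. At an unadjusted p under 0.05 there were 4 (8.51%, below the 11.6% of all probe sets), and the methods' t-test called 0 after adjustment. At any fold HOXC6 passed the adjusted threshold, at 0.55 higher in EXOs (SE 0.120, adjusted p = 0.0349), and 0.207% of all probe sets did so in that direction. It was 0 lower in EXOs, against 2.48%. Of the other unadjusted differences, HOXB2 had 796, 1044 and 1267 in EXOs and 380.5, 125 and 639 in hESEVs (1.71, SE 0.599, adjusted p = 0.261). HOXD9 went the other way at 205605_at, with 93.7, 22.2 and 49.0 in EXOs and 182, 442 and 202 in hESEVs (-2.26, SE 0.609, adjusted p = 0.106). HOXB8 229667_s_at was at 0.82 (SE 0.337).

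For HOXD1 the EXOs minus hESEVs difference was 0.10 with a 95% interval of -0.33 to 0.54, and for HOXB4 0.08 with an interval of -1.16 to 1.31, which leaves room for more than 2-fold either way. Of the 47 values 30 were above 0 (63.8%, against 52.2% of all probe sets) and 16 below (34.0%, against 47.6%), and the family median was 0.11, against 0.03 for all probe sets. EXOs lay above hESEVs without overlap for 9 (19.1%, against 8.0%) and below for 1 (against 8.65%). The hESEVs mean fell between the MVs and the EXOs mean for 29 of 47 HOX probe sets (61.7%), against 49.4% of all probe sets.

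RNAs transcribed from within the HOX clusters but not coding for HOX proteins were measured by 23 probe sets of 11 genes. In MVs against EXOs 0 were called, 17 were below 0 and the median was -0.70. HAGLR, whose span covers the HOXD1 window shown above, had 216, 113 and 702 in MVs, 917, 987 and 1056 in EXOs and 972, 866 and 859 in hESEVs (228601_at). MVs were lowest, with replicate 3 well above the other 2 as for HOXB4, and the difference from EXOs of -1.94 (SE 0.607) had an adjusted p of 0.0827. The other HAGLR probe sets were at -1.05 (242042_s_at) and 0.37 (239182_at). HOTTIP, of the HOXA cluster, averaged 356 ± 147 in MVs and 828 ± 95.5 in EXOs at 1564069_at (-1.31, SE 0.376, adjusted p = 0.0629). Its other probe sets were near 0, at -0.24 (1564070_s_at) and 0.04 (244553_at). HOXB-AS3 averaged 270 ± 62.8 in MVs and 615 ± 37.4 in EXOs at 230743_at (-1.22, SE 0.332, adjusted p = 0.054). Its other probe sets went both ways, at -0.90 (240151_at), -0.35 (236892_s_at), 0.19 (239791_at) and 0.73 (236893_at). HOTAIR, of the HOXC cluster, was dim at 8.48, 39.3 and 69.7 in MVs and 117, 220.5 and 164 in EXOs.

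Of the TALE cofactors 1 of 20 probe sets was called (5.0%, against 1.97% of all probe sets, and 0 to 1 on leaving out 1 array), PKNOX1 221883_at, with 278, 413 and 169 in MVs and 751, 727 and 817 in EXOs (-1.51, SE 0.375, adjusted p = 0.0397). The other PKNOX1 probe sets were at -2.18 (216004_s_at), -1.35 (204196_x_at), -0.68 (54051_at) and, the other way, 0.98 (204195_s_at). MEIS2 was lower in MVs at under 2-fold, with 843 ± 31.6 in MVs and 1451 ± 148 in EXOs (-0.78, SE 0.143, adjusted p = 0.0113). Of the ParaHox and other related homeobox genes 1 of 32 was called, EN2, a midbrain and hindbrain gene, lower in MVs (-1.17, SE 0.235, adjusted p = 0.0168), and the median was -0.53.

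Of 70 Polycomb probe sets 7 were called higher in MVs and 0 lower (10.0%, against 7.23% of all probe sets called higher), while 40 of 70 log2 fold changes were below 0 and the median was -0.14. RBBP7, a histone-binding subunit, had 4958, 5159 and 4929 in MVs and 922, 618 and 560.0 in EXOs, with no overlap (2.88, SE 0.187, adjusted p = 3.57e-05). PHC1 rose by 1.48 (SE 0.111) at 225958_at, with -0.01 at its other probe set, and KDM2B, which binds CpG-rich DNA, by 1.19 (SE 0.161). Of 45 probe sets in the Trithorax list 2 were called higher in MVs and 0 lower (4.44%, against the same 7.23%). They were DPY30 (2.26, SE 0.142) and KDM1A (1.96, SE 0.316), while 28 of 45 were below 0. KDM1A is a histone demethylase placed in that list, so its call is not read as that of a HOX activator. Of 41 retinoid and CDX probe sets 1 was called higher, RARG 204189_at (1.45, SE 0.326), and 1 lower, RXRB 215098_at (-1.63, SE 0.291). The other RARG probe sets were at 0.57 (204188_s_at) and -1.41 (217178_at), and the higher count of the list was 0 to 2 on leaving out 1 array.

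Genes that flank the clusters had 5 of 38 probe sets called higher in MVs and 0 lower (13.2%, against 7.23% of all probe sets), and the count was 2 to 6 on leaving out 1 array. Among them was HNRNPA1, which lies beyond the HOXC cluster, with 3759 ± 287 in MVs and 1053 ± 193 in EXOs at 214280_x_at, where its other probe sets were at -0.74 and -0.25. Their median of -0.04 was above that of HOX. The embryonic stem cell markers had 12 of 22 called higher in MVs (54.5%, against 7.23%) and 1 lower (4.55%, against 1.97%), with a median of 1.48. The lower one was a probe set of SOX2, whose probe sets went both ways. They were at 2.72 (213721_at), 1.88 (228038_at), -1.25 (213722_at) and -1.10 (214178_s_at). The summed signal of the list was 77191 to 80459 in MVs, against 19734 to 22760 in EXOs and 25252 to 28954 in hESEVs.

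Markers of other cells in which HOX genes are active were read beside these results. Posterior mesoderm and primitive streak markers had 0 higher in MVs and 1 lower of 15, EOMES, at 436 ± 105 in MVs and 1143 ± 153 in EXOs (-1.41, SE 0.246, adjusted p = 0.00908). Their summed signal was 4334 to 5457 in MVs, against 8408 to 8853 in EXOs and 7056 to 8136 in hESEVs. Hindbrain and spinal markers had 0 of 17 called, with sums of 3264 to 4091 in MVs, against 5163 to 5517 in EXOs and 3999 to 5117 in hESEVs. Fibroblast markers had 4 of 46 called higher in MVs (8.70%, against 7.23%) and 0 lower, but 34 of 46 were below 0, with a median of -0.37. VIM was called at 201426_s_at (3.05) and was at -0.54 at its other probe set. COL1A1 was called at 1556499_s_at (3.23), and its other probe sets were at 3.11 (202310_s_at), -0.03 (202312_s_at) and -0.66 (202311_s_at and 217430_x_at). The list had sums of 30013 to 31340 in MVs, against 24875 to 26090 in EXOs and 28438 to 30478 in hESEVs. No probe set of these lists was under 32 on all arrays. The tissue-restricted list had 0 called higher and 4 lower of 129 (3.10%, against 1.97% of all probe sets), the lower count was 0 to 3 on leaving out 1 array, and its sums were 37954 to 40118 in MVs, against 54016 to 59421 in EXOs and 54170 to 59220 in hESEVs. Its median lay on the same side of 0 as that of HOX, and the part of these levels in the HOX result was not tested.

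**Figure D4:**
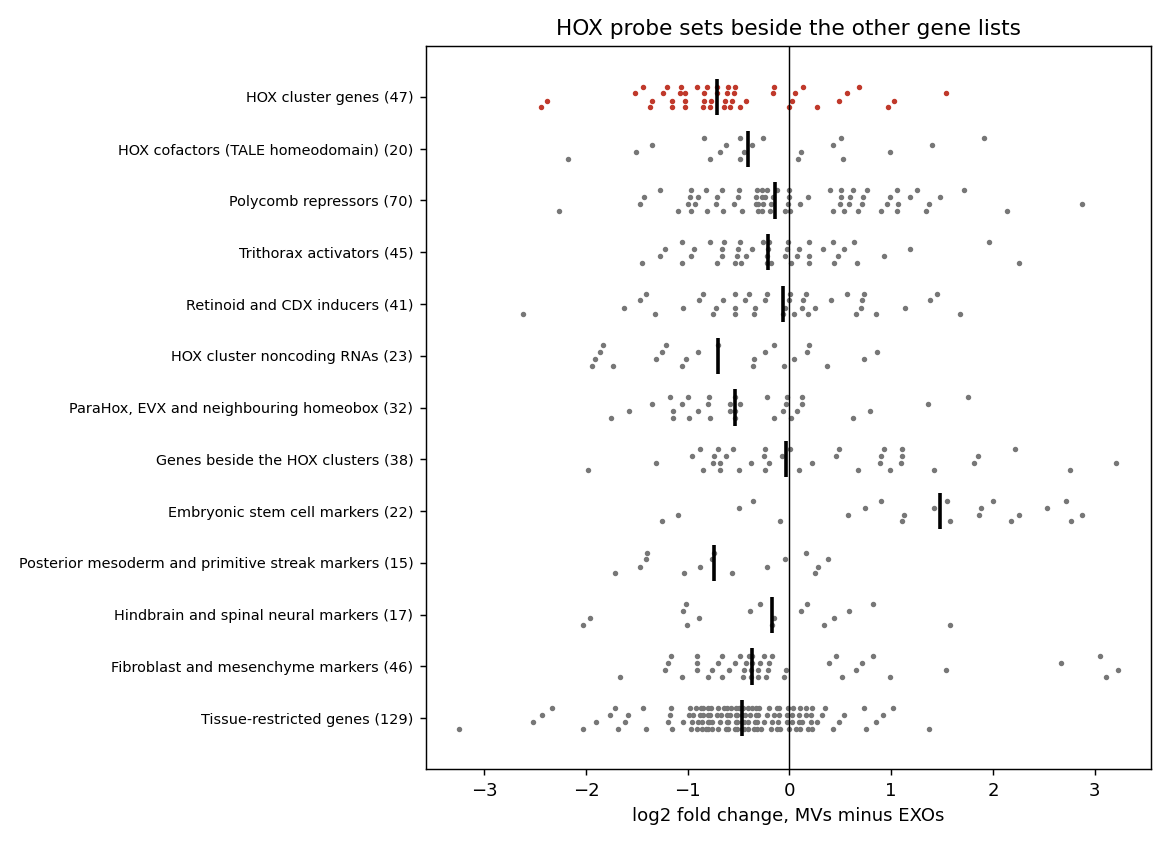
Log2 fold change of MVs minus EXOs (horizontal axis) for each probe set of the HOX clusters (red) and of 12 other gene lists (grey), with a black bar at the median and the number of probe sets in brackets. The HOX bar lies at -0.71, next to those of the HOX cluster noncoding RNAs (-0.70) and of the posterior mesoderm markers (-0.74), and that of the embryonic stem cell markers lies at 1.48.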

How the data were processed

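Total RNA of MVs, EXOs and hESEVs of H9 cells was amplified, labelled with biotin and hybridized to 9 arrays. The authors deposited one MAS5 intensity per probe set and array, on a linear scale and scaled to a target of 500. The MAS5 version is not given in the sources used here. After removal of the extreme 2% of probe sets at either end, every array averaged 500. The authors' later RMA normalization starts from probe intensities and was not repeated. No detection p-values were used, and 3 arrays per group limit the precision. No column belonged to other samples.

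Samples were grouped by the vesicle type in their titles, and the study calls the replicates biological samples, with 3 cultures behind MVs and EXOs. Whether same-numbered MVs, EXOs and hESEVs came from one culture is not stated in the labels. Same-numbered replicates of different groups were not taken as pairs. Gene symbols came from the platform annotation. Of the 54613 probe sets tested, 41091 had 1 symbol, 1801 several and 11721 none. Of the 62 control probe sets 18 served as spike-in controls. Names were checked against RefSeq (GRCh38.p14), and 0 had to be updated. MAS5 signals of different probe sets are not comparable per transcript.

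Signals were raised to a floor of 32, taken to log2 and tested with lmFit and eBayes (trend, two-sided) of limma 3.58.1 in R 4.3.3. The MVs and EXOs comparison used 6 arrays, and those with hESEVs used a joint model of 9. Tables and plots were made with Python 3.11.15. Alternatives covered the floor, the scaling, the variance prior, filters, the probe sets of a gene, the test, the fold threshold, the arrays fitted, a replicate block and leaving out each array. The tests were run on simulated data first.

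The members, the 12 gene lists and the rules were chosen with earlier results of these data known. Array values were set for the HOX probe sets called in MVs against EXOs, the brightest of each cluster and the 3 brightest over all. The other HOX members with array values were described after their values were seen. For other lists, up to 3 probe sets of smallest p were named, and the 2 brightest noncoding RNAs. A HOX gene named by the study was not analysed here.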

Additional observations from a re-analysis of the deposited data

How the results depend on the processing

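The family medians of the log2 fold change kept their sign under the alternatives run, and no result reversed. They were -0.84 to -0.50 in MVs against EXOs and -0.54 to -0.25 in MVs against hESEVs, smallest in size in both with each array centred on its median. Without that centring, the SD between arrays of the HOX median log2 signal was 0.11 in MVs, 0.33 in EXOs and 0.27 in hESEVs. The number of HOX probe sets called, of which there were 1, 1 and 0, depended on the settings. In MVs against EXOs (1) every HOX call was lower in MVs. Brackets after these HOX counts hold the number of all probe sets called lower, which was 1078 at the main settings. The HOX count was 4 (1260) with a floor of 1 and 2 (980) with a floor of 100. Quantile normalization gave 2 (1424) and median centring 0 (324). Above the median signal the HOX count was 5 of 18 (1424 of 27306). Without probe sets marked _s_at or _x_at it was 0 of 30 (736 of 39114). The brightest probe set of each gene gave 4 of 28 (548 of 19775). It was 9 (3840) at an unadjusted p of limma, 8 (2650) with the methods' t-test unadjusted and 2 (447) adjusted. With no fold threshold it was 5 (2267), and in a fit of all 9 arrays 4 (1533). In MVs against hESEVs (1) it was 3 (653) lower in MVs with a floor of 1 and 2 (713 of 27306) above the median signal. It was 2 lower with probe sets of 1 symbol (431 of 41091) and with the brightest probe set (308 of 19775). At an unadjusted p it was 4 lower and 1 higher (2758 and 3825 of all). The t-test unadjusted gave 3 lower and 1 higher (1744 and 3419), and no fold threshold 2 lower (1268). The HOX count was 0 with quantile normalization (542 of all lower), the spike-in scaling (339), no trend (400), the t-test adjusted (241), or the 6 arrays of both groups (461). In EXOs against hESEVs (0) it was 1 higher in EXOs with quantile normalization (277 of all). At an unadjusted p it was 1 higher and 1 lower (1190 and 2403). It was 1 lower with the t-test unadjusted (1667) and 1 higher with no fold threshold (113). The cause of these shifts was not tested. Over all probe sets, the 3949 higher and 1078 lower in MVs than in EXOs became 4619 and 324 with median centring and 5357 and 3840 at an unadjusted p.

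Leaving out each array in turn gave 0 to 2 calls in MVs against EXOs (0 without EXOs replicate 1, 2 without MVs replicate 3 or EXOs replicate 3), 0 to 1 in MVs against hESEVs (0 without MVs replicate 1, hESEVs replicate 1 or hESEVs replicate 2) and 0 in EXOs against hESEVs. Of all probe sets, these fits called 571 to 786 lower in MVs than in EXOs and 295 to 586 lower than in hESEVs. Deviations of each array from its group mean were correlated between groups. The correlation was between -0.0106 and 0.013 for same-numbered arrays and between -0.0112 and 0.0147 for differently numbered ones. A deviation from a mean of 3 arrays is a weak check, so whether same-numbered preparations share a culture cannot be decided. With a replicate block the count was 2 in MVs against EXOs, where 575 of all probe sets were called lower, and did not change in the other comparisons.

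The counts above the level of tissue-restricted genes (4 in MVs, 5 in EXOs and 5 in hESEVs) were 13, 18 and 14 at its 75th percentile, 2, 3 and 2 at its 95th, 15, 20 and 20 at the median of all probe sets, and 2, 2 and 2 without probe sets marked _s_at or _x_at. Most HOX signals were dim, and differences of probe sets near the floor are only loosely bounded with 3 arrays a group.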
